A study of Cricetulus griseus with 6 samples.

Results

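Trastuzumab alone was examined in CHO-K6, a Chinese hamster ovary line that stably overexpresses human HER2. The comparison sets the trastuzumab-treated CHO-K6 array against the untreated CHO-K6 array, 2 of the 6 arrays of the series, over all 29700 transcripts of the deposited table of log2 signals. Shifts were described among the 14480 transcripts (48.8%) whose log2 signal, averaged over both arrays, was 6 or more. The other 4 arrays held CHO-K6 with trastuzumab + pertuzumab, CHO-K6 with pertuzumab, the parental line CHO-K1 with trastuzumab + pertuzumab, and untreated CHO-K1. Per the study's methods, cells were kept in medium with 1% fetal bovine serum (FBS) for 24 h. Fresh medium with 10% FBS and antibody at 10 µg/mL was then given for 24 h. The methods do not say whether untreated cells also received fresh medium with 10% FBS. The reference was untreated CHO-K6 without a control immunoglobulin. CHO-K6 is 1 line, and each condition had 1 array, so no difference can be set against a spread between replicates, no test was possible, and every value below describes these arrays.

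HER2 (ERBB2) is a receptor tyrosine kinase with no known ligand of its own. It pairs with itself or with other ERBB receptors, and the phosphorylated pair signals through the RAS-ERK and PI3K-AKT pathways to cell growth and division. Trastuzumab is an antibody that binds the part of HER2 close to the cell membrane, and it is used against HER2-positive breast cancer.

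Most mesenchymal markers were bright in both arrays, with 4 of 6 at a signal of 6 or more in untreated CHO-K6. Cdh2 (5.1 untreated) and Col1a1 (5.78) were below it. Vimentin (Vim), a filament protein of mesenchymal cells, had a log2 signal of 13.30 in both, and the matrix protein gene Sparc had 12.34 with trastuzumab and 12.23 untreated. The labels call the line epithelial, but 0 of 5 epithelial markers reached 6 in the untreated array. The keratin gene Krt18 had 4.42 with trastuzumab and 4.71 untreated, and the adhesion gene Cdh1 had 6.16 with trastuzumab and 5.86 untreated. None of the 3 blood cell and 4 endothelial markers measured reached 6 untreated. Of the 3 neural markers 1 did (Gfap, 6.11), and so did 1 of the 2 granulosa and steroid markers (Star, 8.14 untreated and 8.01 with trastuzumab). In a bulk RNA sample, fewer cells of a kind and less RNA per cell cannot be told apart.

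Differences with trastuzumab were small over the whole range of signal. Among the 14480 transcripts the median log2 difference, trastuzumab minus untreated, was 0.01, the differences ran from −0.91 to 0.85, and 93.2% were smaller than 1.2-fold. This 1.2-fold difference, 0.263 on the log2 scale, was the threshold for a single transcript. By it 578 transcripts (3.99%) were higher with trastuzumab and 409 (2.82%) were lower. At 2-fold, over all 29700 transcripts, the shares were 0.0471% higher and 0.0505% lower, and none of those had a mean signal of 6 or more. The differences narrowed as signal rose. Their SD over transcripts was 0.192 at a signal of 6 to 7 and 0.09 at 12 or more, and the share past 1.2-fold in the higher direction was 8.08% in the dimmest class and 0% in the brightest. Transcripts without a gene symbol made up 42.4% of those higher and 61.9% of those lower, against 27.9% of all 14480.

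**Figure D1:**
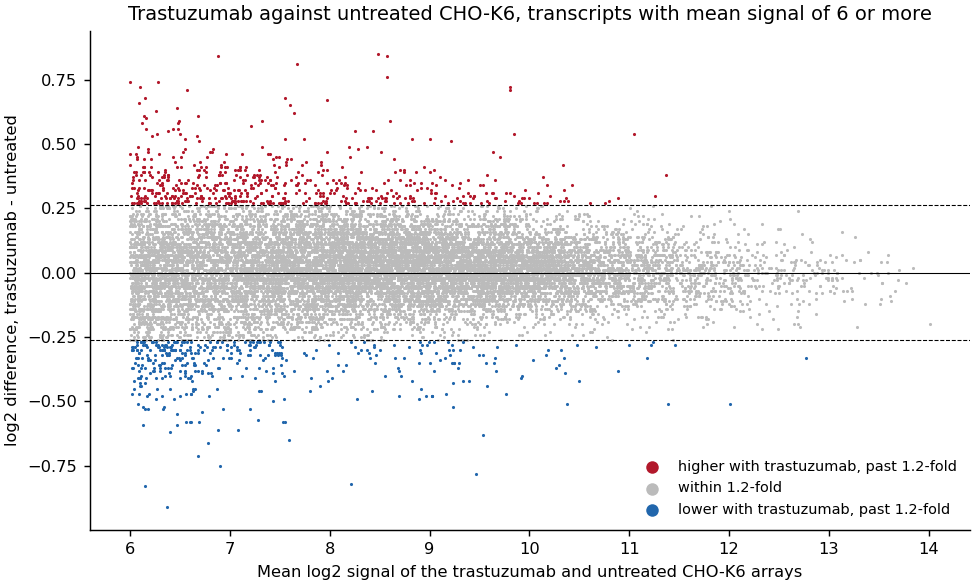
Each point is a transcript, with its mean log2 signal in the trastuzumab and untreated CHO-K6 arrays on the x axis and its log2 difference, trastuzumab minus untreated, on the y axis. The dashed lines mark 1.2-fold. The 578 transcripts above the upper line and the 409 below the lower line are mostly dim, with median signals of 7.27 and 6.86.

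Stap2 and Dusp1 were among the named transcripts furthest higher with trastuzumab. Stap2, an adaptor protein of tyrosine kinase signalling, had a log2 signal of 8.99 with trastuzumab, 8.90 with trastuzumab + pertuzumab, 9.10 with pertuzumab and 8.15 untreated. Its difference of 0.84 (1.79-fold) was repeated by its other transcript on the array, which read 7.89 with trastuzumab and 7.21 untreated, a difference of 0.68. In both transcripts the untreated CHO-K6 array was the low one, and the CHO-K1 arrays stood with the antibody-treated ones, at 8.92 for CHO-K1 with trastuzumab + pertuzumab and 8.78 for untreated CHO-K1 on the brighter transcript.

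Dusp1, a phosphatase that switches off MAP kinases, had 10.16 with trastuzumab, 9.87 with trastuzumab + pertuzumab, 9.97 with pertuzumab and 9.45 untreated. Its single transcript thus differed by 0.71 (1.64-fold) between the trastuzumab and untreated arrays, and again the untreated array was the lowest of the 4. Lhpp, a phosphatase gene, also had its lowest value untreated, with 9.26 with trastuzumab, 9.19 with the combination, 9.45 with pertuzumab and 8.74 untreated. The mRNA decapping gene Dcp1b read 9.47 with trastuzumab and 8.96 untreated, and Ypel3 read 8.62 with trastuzumab and 8.13 untreated.

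In other genes the trastuzumab array was the highest. Adam22, a member of the ADAM family without protease activity, had 9.08 with trastuzumab, 8.69 with trastuzumab + pertuzumab, 8.58 with pertuzumab and 8.56 untreated, so that the other 3 arrays lay close together. Its 3 other transcripts at a signal of 6 or more had differences of 0.09 to 0.25. Lpp, a LIM protein of focal adhesions, differed by 0.49 in the transcript that ranked highest and by 0.15 to 0.36 in its 2 others, and the zinc finger gene Zbtb20 differed by 0.47 and 0.40 in its 2 transcripts. For these 3 genes all measured transcripts lay on the same side.

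Other high differences were not shared by the gene's remaining transcripts. Gfod2 had 6.37 with trastuzumab and 5.63 untreated in 1 transcript, while the other differed by −0.23. Cd46, a membrane protein that restrains complement, had 6.79 with trastuzumab, 6.14 with the combination, 5.45 with pertuzumab and 6.15 untreated. Its 2 other transcripts differed by 0.20 and, at a signal under 6, by −0.91. Pmpcb, a subunit of the peptidase that trims imported mitochondrial proteins, differed by 0.47 in 1 transcript and by −0.12 in the other. Over the 785 genes with several transcripts at a signal of 6 or more, the differences of the 2 brightest transcripts of a gene correlated with r = 0.232 (Spearman's rho 0.216), which is a description across genes of the same 2 arrays. In 40 of these genes the brightest transcript passed 1.2-fold, and the next one lay on the same side of 0 in 28 and past 1.2-fold on that side in 7.

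On the lower side Rnf113a, a RING finger protein of the spliceosome, had 6.78 with trastuzumab, 6.90 with trastuzumab + pertuzumab, 7.36 with pertuzumab and 7.39 untreated, a difference of −0.61 between the trastuzumab and untreated arrays. Both arrays that held trastuzumab were thus low and the other 2 CHO-K6 arrays high. Imp4, a protein of the U3 small nucleolar ribonucleoprotein that processes ribosomal RNA, stood apart from all others in the trastuzumab array alone. It read 9.53 with trastuzumab against 10.09 with the combination, 10.10 with pertuzumab and 10.00 untreated.

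Actr5, a subunit of the INO80 chromatin remodeller, followed the pattern of Imp4 at 8.65 with trastuzumab, 9.06 with the combination, 9.15 with pertuzumab and 9.14 untreated. Gpr137, a membrane protein gene, had 7.26 with trastuzumab and 7.84 untreated. The rest of the 15 furthest lower were dim genes, several of them known from muscle, nerve or germ cells. They include the muscle actinin gene Actn2 (5.91 with trastuzumab, 6.44 untreated), the germ cell RNA-binding gene Ybx2 (5.82 and 6.33), the neuronal chloride transporter gene Slc12a5 (6.19 and 6.68) and the synaptic gene Cplx1 (5.78 and 6.25). Slc12a5 had 6.26 with the combination and 6.10 with pertuzumab, so that its untreated array was the high one.

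Of the 15 named transcripts furthest higher, 12 had the trastuzumab array highest of the 4 CHO-K6 arrays and 11 had the untreated array lowest. Of the 15 furthest lower, 11 had the trastuzumab array lowest and 10 had the untreated array highest. Over all 578 higher transcripts the trastuzumab array was the highest of the 4 in 393 (68.0%) and the untreated array was the lowest in 342 (59.2%). Over the 409 lower ones the trastuzumab array was the lowest in 259 (63.3%) and the untreated array the highest in 265 (64.8%). These positions follow in part from choosing transcripts by the difference between the 2 arrays, and either array could be the one that stood apart.

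**Figure D2:**
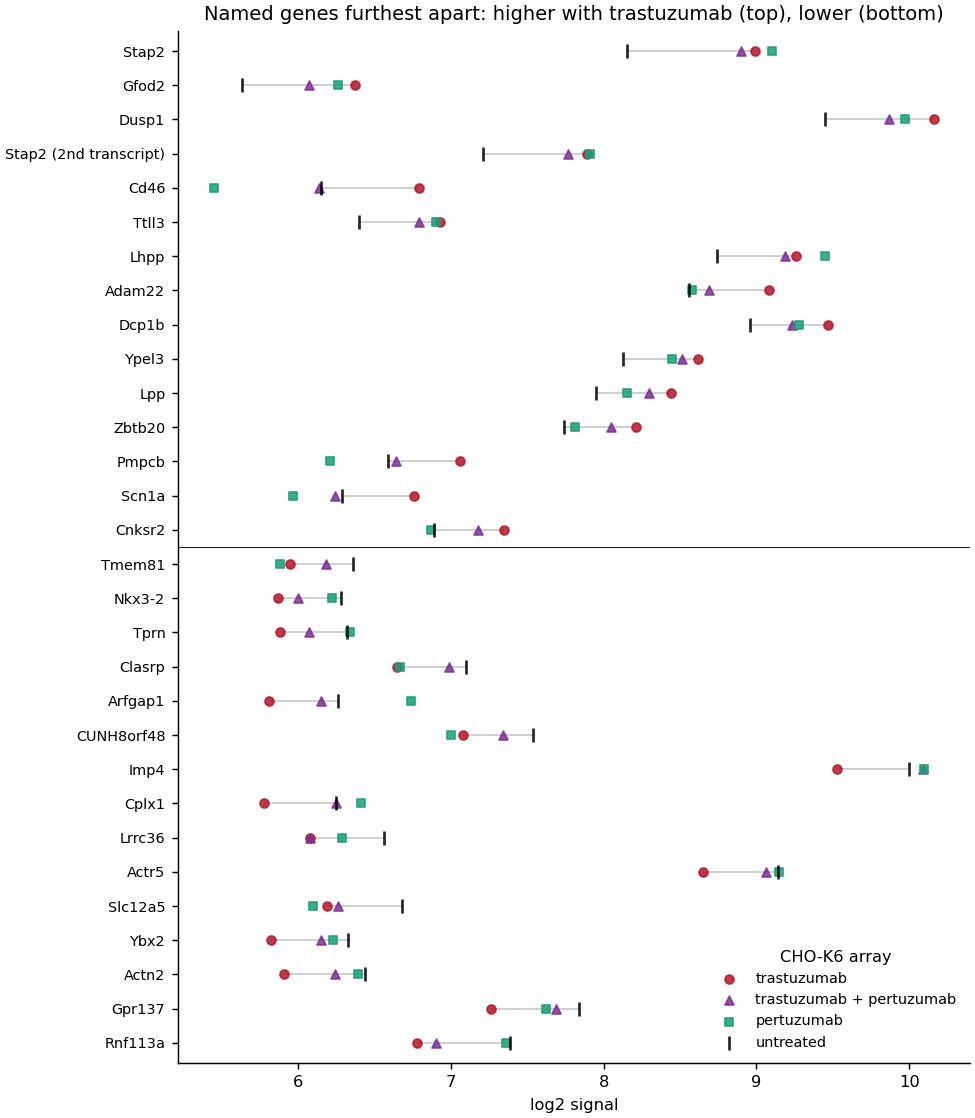
Rows are the 15 named transcripts furthest higher and the 15 furthest lower with trastuzumab, and the x axis is the log2 signal in each of the 4 CHO-K6 arrays (1 array per condition). For Stap2, Lhpp and Dusp1 the untreated mark stands alone on the left, while for Adam22, Imp4 and Actr5 the trastuzumab mark stands alone.

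The receptor family and its ligands showed no transcript past 1.2-fold among the 10 genes measured. Erbb2 had 8.80 with trastuzumab, 9.01 with trastuzumab + pertuzumab, 9.21 with pertuzumab and 9.01 untreated, a difference of −0.21 for trastuzumab. In the CHO-K1 arrays it read 8.64 with trastuzumab + pertuzumab and 8.50 untreated. The array was made for hamster genes, and whether its Erbb2 probes also read the human gene was not tested. The ligand genes of EGFR divided: amphiregulin (Areg) differed by −0.20 and epiregulin (Ereg) by 0.12. Lrig3, of a family of membrane proteins that modulate receptor tyrosine kinases, had the largest difference of the list, 0.22, with 9.66 with trastuzumab and 9.44 untreated, and Errfi1, an inhibitor of ERBB kinases, differed by 0.12. Tgfa, Nrg2, Lrig1 and the shedding protease gene Adam10 differed by 0.03 or less in either direction.

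Among the 14 genes that ERK signalling induces and that in part restrain it, Dusp1 alone passed 1.2-fold. The ERK phosphatase genes Dusp4, Dusp6 and Dusp7 differed by 0.10, 0.07 and 0.10, and the inhibitor genes Spry2 and Spred1 by 0.18 and 0.10, although a second Spry2 transcript differed by −0.24. Cyclin D1 (Ccnd1), a target of the pathway that drives entry into the cell cycle, had 11.71 with trastuzumab and 11.79 untreated. The list's median was 0.075, with 9 of 14 genes above the median of all genes. The 20 immediate early genes, which serum and growth factors switch on within minutes, had a median of 0.055 and quartiles of −0.072 and 0.202, and 2 genes were higher and 1 lower past 1.2-fold, where 2.65% and 1.05% of all genes were. These 3, named after their values were seen, were Ier5l (8.12 with trastuzumab, 7.70 untreated), Ier2 (6.75 and 6.45) and, on the lower side, Btg2 (5.92 and 6.22), which restrains cell division. Of the best known members, Egr1 read 9.25 with trastuzumab and 9.04 untreated, Fos 6.22 and 6.27, and Myc 10.23 and 10.18.

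Coordinated shifts were described over 58 of 60 gene lists, with 1 transcript per gene. Over all 8252 genes with a name the median difference was 0.02, the quartiles were −0.05 and 0.09, and the shares past 1.2-fold, given above, came to 219 genes higher and 87 lower. A list was singled out where 8 or more of its genes were measured, its median lay 0.05 or more from that of all genes, and 65% or more of its genes lay on that side. By this rule 10 lists lay below all genes and 2 above. The 10 lower lists hold 411 genes, of which 3 were higher and 3 lower past 1.2-fold, so the shifts were made of many small differences. The genes of a list were read on the same 2 arrays and are not replicates. The median signals of the 10 lists, 9.26 to 12.1, were above that of all genes, 8.84. The median difference of all transcripts was 0.02 at a signal of 9 to 10, 0.01 at 10 to 11, 0 at 11 to 12 and −0.01 at 12 or more. The rule was met in the main setting and in all 8 others run on these 2 arrays by 4 lists: SR proteins, cytosolic chaperones, DNA replication and mitotic genes. The other 8 lists no longer met it in at least 1 of those settings, as given beside each, and none of the 12 changed side in them. All of those settings reprocess the same 2 arrays. None of the 4 lists met the rule against the other antibody-treated CHO-K6 arrays or for trastuzumab + pertuzumab against pertuzumab.

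**Figure D3:**
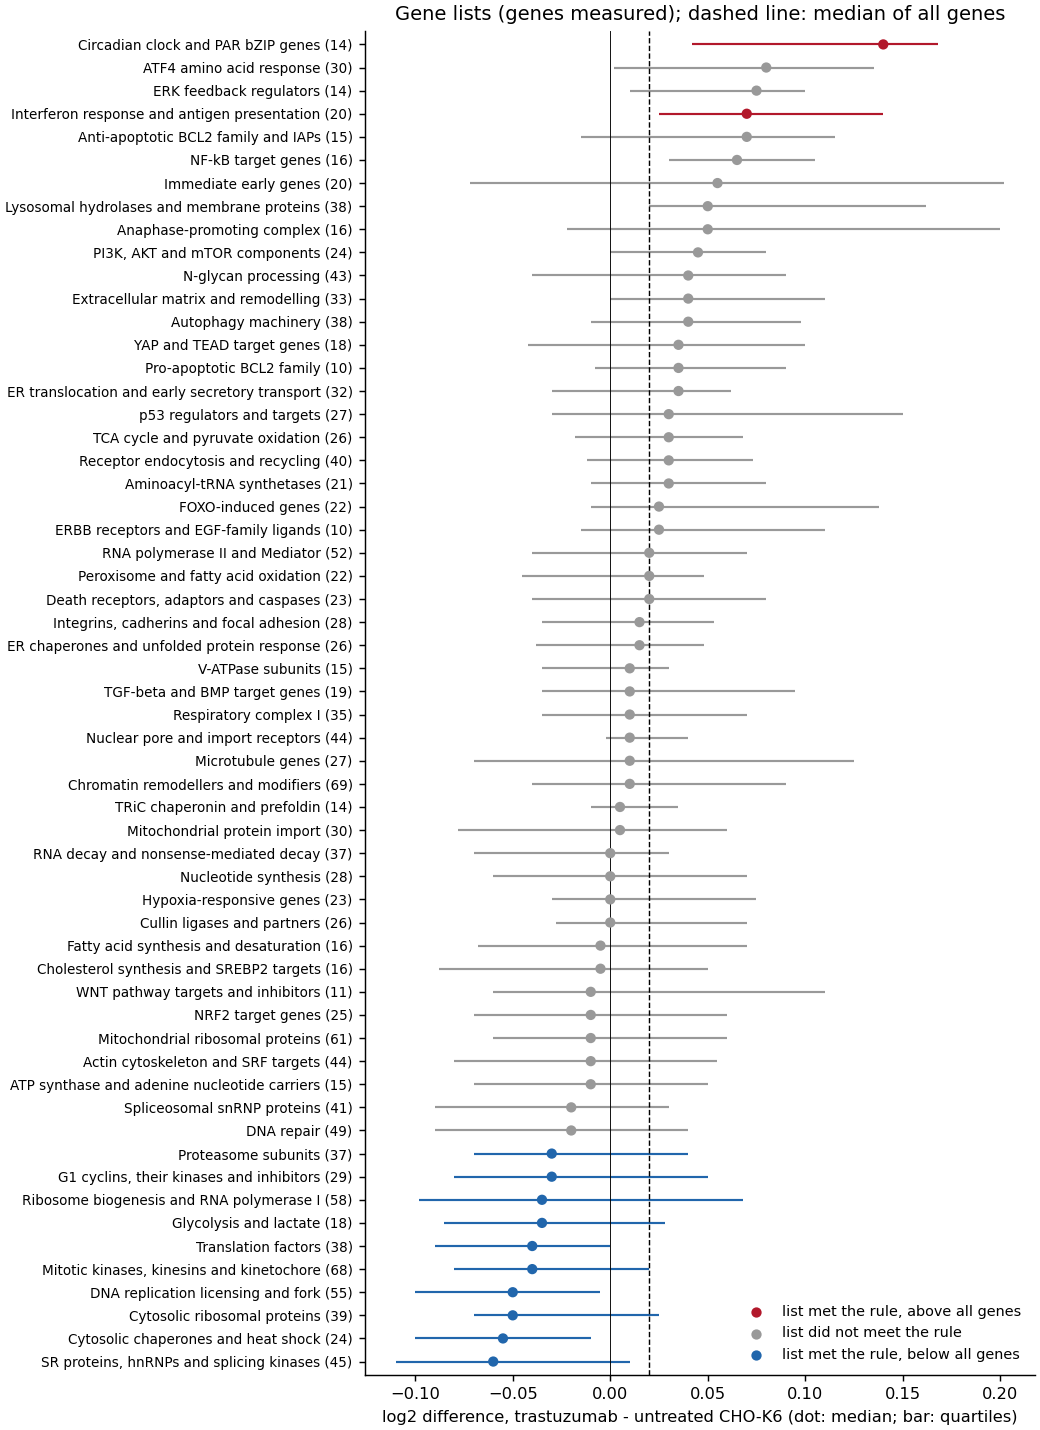
Dots give the median log2 difference, trastuzumab minus untreated CHO-K6, of each of 58 gene lists, with the number of genes measured in brackets, and bars span the quartiles of its genes. The dashed line is the median of all genes, 0.02. Blue lists met the rule below it and red lists above it, and all medians lie between −0.06 and 0.14.

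Of 4 lists of the cell cycle, 3 were among the lower lists. DNA replication licensing and fork genes had a median of −0.05, with 46 of 55 genes below the median of all genes and 8 above. Fen1, the flap nuclease that matures Okazaki fragments, had 9.41 with trastuzumab, 9.61 with the combination, 9.90 with pertuzumab and 9.67 untreated. Orc1 of the origin recognition complex had 8.52 with trastuzumab and 8.74 untreated, Mcm10, a helicase cofactor, had 8.71 and 8.93 in that order, and the clamp loader gene Rfc5 had 8.75 and 8.92. The differences of these 4 genes lay between −0.26 and −0.17. Against them stood Orc3 (0.23) and the primase gene Prim2 (0.16). The trastuzumab array was the lowest of the 4 CHO-K6 arrays in 22 of the 55 genes (40.0%), and the untreated array was the highest in 18 (32.7%). The shares over all genes were 19.8% and 16.3%, but choosing lists by this difference raises both shares, so the positions given for each list only describe which array stood apart.

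The G1 cyclins, their kinases and inhibitors had a median of −0.03, with 20 of 29 genes below all genes. Cyclin E2 (Ccne2), which starts S phase with its kinase, had 8.23 with trastuzumab and 8.42 untreated, and its second transcript differed by −0.11. The S phase transcription factor genes E2f1 and E2f3 each differed by −0.11. On the other side cyclin D2 (Ccnd2) had 10.49 with trastuzumab and 10.21 untreated, past 1.2-fold, and Cdkn1a, which codes for the kinase inhibitor p21, had 9.02 and 8.83. Another inhibitor gene of that family, Cdkn1b, which codes for p27, had 10.28 with trastuzumab and 10.40 untreated. Its higher and its lower genes thus each held a cyclin and an inhibitor. The list sat at the edge of the rule and no longer met it at a signal of 5 or more, with no signal minimum, with quantile normalization, with the loess trend removed or with means for medians.

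Mitotic kinases, kinesins and kinetochore genes had a median of −0.04, with 49 of 68 genes below all genes and 16 above. Aurkb, the kinase of the chromosomal passenger complex, had 8.96 with trastuzumab, 9.04 with the combination, 9.18 with pertuzumab and 9.17 untreated. The kinesin gene Kif2c had 9.56 with trastuzumab and 9.75 untreated, the condensin gene Smc2 had 10.15 and 10.35, and Gtse1 had 9.08 and 9.27. Fzr1, an activator of the anaphase-promoting complex, went against the list and passed 1.2-fold at 9.77 with trastuzumab, 9.66 with the combination, 9.99 with pertuzumab and 9.39 untreated. In 11 of the 68 genes (16.2%) the trastuzumab array was the lowest of the 4, and in 29 (42.6%) the untreated array was the highest.

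The anaphase-promoting complex, the ubiquitin ligase that ends mitosis, ran the other way at a median of 0.05, without meeting the rule. Of its 16 genes 9 were above all genes. Past 1.2-fold 2 were higher and none was lower, where 2.65% and 1.05% of all genes were. These 2 were the activator Fzr1, which is also counted in the mitotic list, and the subunit gene Anapc2. Anapc2, named after its value was seen, had 8.06 with trastuzumab and 7.75 untreated.

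RNA processing and protein synthesis gave the next group of lower lists. The SR proteins, hnRNPs and splicing kinases, which set the choice of splice sites, had a median of −0.06 with 34 of 45 genes below all genes, and with no gene lower and none higher past 1.2-fold. Hnrnpa3 had 11.68 with trastuzumab, 11.75 with the combination, 11.59 with pertuzumab and 11.88 untreated. Srsf5 had 10.96 with trastuzumab and 11.14 untreated, Sfpq had 10.56 and 10.72, and Srsf4 had 9.99 and 10.14. Srsf9 (0.26) and Pnisr (0.17, with −0.10 in its second transcript) ran the other way. The trastuzumab array was the lowest of the 4 in 5 of the 45 genes (11.1%), and the untreated array was the highest in 25 (55.6%).

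Cytosolic ribosomal proteins had a median of −0.05, with 27 of 39 genes below all genes and none past 1.2-fold in either direction. The bright members Rpl32 (12.62 with trastuzumab, 12.77 untreated), Rpl8 (12.31 and 12.43) and Rps25 (11.63 and 11.80) and the less bright Rpl26 (10.35 and 10.56) were furthest down, and Rplp2 (12.61 and 12.50) and Rpl27a (12.11 and 12.01) furthest up. Ribosomal protein genes have many processed copies in mammalian genomes, and whether the probes read more than 1 copy was not tested. With quantile normalization the list stood at −0.048 from all genes and no longer met the rule. Translation factors had a median of −0.04, with 30 of 38 genes below all genes, and no longer met the rule with quantile normalization (−0.043 from all genes) or the loess trend removed (−0.048). The initiation factor subunits Eif3b (8.89 with trastuzumab, 9.08 untreated) and Eif3d (10.89 and 11.05), the helicase cofactor Eif4h (9.55 and 9.71) and the release factor Gspt1 (11.68 and 11.86) were furthest lower. Subunits of the same eIF3 complex were also furthest in the other direction, Eif3g by 0.06 and Eif3j by 0.05.

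Ribosome biogenesis genes had a median of −0.035, with 38 of 58 genes below all genes. Besides Imp4, the rRNA methyltransferase gene Fbl had 11.32 with trastuzumab and 11.54 untreated, Mphosph10, whose protein binds IMP4 in the same particle, had 9.84 and 10.05, and the nucleolar gene Nolc1 had 8.54 and 8.74. Noc4l and Polr1b, a subunit of RNA polymerase I, were each higher by 0.16. The list no longer met the rule at a signal of 8 or more, with no signal minimum or with the mean of a gene's transcripts.

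Genes of protein folding and turnover were also among the lower lists. The cytosolic chaperones had a median of −0.055, with 18 of 24 genes below all genes and 5 above. This list also holds the mitochondrial chaperone genes Hspd1 (−0.05) and Hspa9 (0.07). Hspa8, the constitutive HSP70, had 12.60 with trastuzumab, 12.73 with the combination, 12.65 with pertuzumab and 12.77 untreated. Cdc37, which brings protein kinases to HSP90, had 9.48 with trastuzumab and 9.71 untreated, the HSP90 cochaperone gene Ptges3 had 10.30 and 10.45, and Hspa2, an HSP70 of germ cells, passed 1.2-fold at 8.77 and 9.04. The small heat shock gene Hspb1 (11.94 and 11.75) and Bag3 (10.63 and 10.52) were higher with trastuzumab. The trastuzumab array was the lowest of the 4 in 12 of the 24 genes, and the untreated array was the highest in 6. The chaperonin TRiC with prefoldin had a median of 0.005 over 14 genes, and the chaperones of the endoplasmic reticulum had 0.015 over 26 genes.

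Proteasome subunits had a median of −0.03, with 25 of 37 genes below all genes. Psma3, a subunit of the core particle, was past 1.2-fold at 9.53 with trastuzumab and 9.82 untreated, and it was as low with the combination (9.50) and with pertuzumab (9.43). The ubiquitin receptor gene Adrm1 (10.57 with trastuzumab, 10.35 untreated) and the ATPase subunit gene Psmc4 (12.01 and 11.81) were higher. The list no longer met the rule with the loess trend removed (−0.046 from all genes), with means, with no signal minimum or in the series matrix (−0.043). Genes of glycolysis had a median of −0.035, with 12 of 18 below all genes. The differences were −0.13 for the phosphofructokinase gene Pfkl, −0.10 for Hk2 and −0.09 for Pgam1, while Pfkfb4, which makes the activator of phosphofructokinase, passed 1.2-fold in the other direction at 7.25 with trastuzumab and 6.87 untreated. The glycolysis list no longer met the rule with quantile normalization (−0.04 from all genes), means (−0.031) or no signal minimum.

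**Figure D4:**
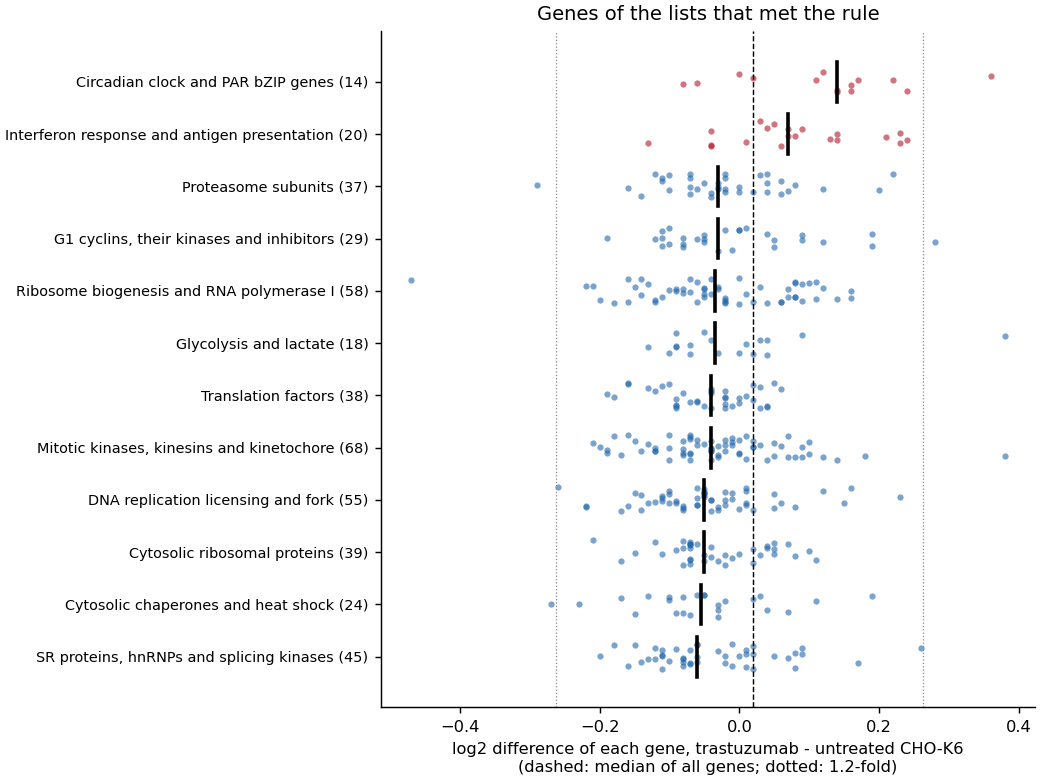
Each point is a gene of 1 of the 12 lists that met the rule, placed by its log2 difference, trastuzumab minus untreated CHO-K6. Black bars are the list medians, the dashed line is the median of all genes (0.02) and the dotted lines are 1.2-fold. Few points lie past the dotted lines, among them Imp4 (−0.47), Fzr1 (0.38), Pfkfb4 (0.38) and Tef (0.36).

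Genes of the circadian clock formed the list furthest from all genes, at a median of 0.14, with 10 of 14 genes above all genes and 3 below. Tef, of the PAR bZIP factors that the clock drives, had 9.57 with trastuzumab, 9.39 with the combination, 9.72 with pertuzumab and 9.21 untreated. The clock repressor gene Bhlhe40 had 9.31 with trastuzumab and 9.07 untreated, Cry2 had 8.15 and 7.93, and Per2 had 7.37 and 7.20. Csnk1d (−0.08), a kinase that marks PER proteins, and Cry1 (−0.06) lay below. The trastuzumab array was the highest of the 4 in 2 of the 14 genes (14.3%), and the untreated array was the lowest in 8 (57.1%). Over all genes these shares were 21.6% and 30.1%. At a signal of 8 or more the list no longer met the rule, with 55.6% of genes on its side.

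Interferon response and antigen presentation genes had a median of 0.07, with 15 of 20 above all genes and none past 1.2-fold in either direction. The peptide transporter genes Tap1 (8.75 with trastuzumab, 8.52 untreated) and Tap2 (8.34 and 8.13), the interferon-induced Oasl (8.01 and 7.77) and the deconjugating enzyme gene Usp18 (6.60 and 6.37) were furthest higher. The interferon-induced kinase gene Eif2ak2 (−0.13) and the factor gene Irf7 (−0.04) were furthest in the other direction. The trastuzumab array was the highest of the 4 in 7 of the 20 genes (35%), and the untreated array was the lowest in 10 (50%). Over all genes these shares were 21.6% and 30.1%. The list stood at 0.05 from all genes, fell short of the rule at 0.03 for a signal of 8 or more, and turned to −0.03 against the other antibody-treated CHO-K6 arrays.

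Several lists for signalling, stress and cell death stayed short of the rule, although some met it in other settings. With quantile normalization the ATF4, NF-kB, ERK feedback and anti-apoptotic lists met it, and with the loess trend removed the first 3 of these did. The immediate early list met it at a signal of 5 or more, at 8 or more and with no signal minimum. The ATF4 amino acid response had a median of 0.08 with 19 of 30 genes above all genes. NF-kB targets had 0.065 with 13 of 16 above, lysosomal hydrolases and membrane proteins had 0.05 with 26 of 38 above and 7 below, and the PI3K, AKT and mTOR components had 0.045 with 15 of 24 above. Of lists for cell death, the anti-apoptotic BCL2 family and IAPs had 0.07 with 9 of 15 above, the pro-apoptotic BCL2 family had 0.035 with 6 of 10 above, and death receptors, adaptors and caspases had 0.02 with 11 of 23 above. Autophagy machinery had 0.04 with 20 of 38 above. The remaining lists, among them the respiratory complex I (0.01), the TCA cycle (0.03), mitochondrial ribosomal proteins (−0.01), the actin cytoskeleton (−0.01), DNA repair (−0.02) and FOXO-induced genes (0.025), had medians between −0.02 and 0.05.

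The series holds a pair of other comparisons that share no array with this one. In CHO-K6, trastuzumab + pertuzumab against pertuzumab differs by design in the addition of trastuzumab, and 12.9% of the 14480 transcripts were higher and 9.01% lower there past 1.2-fold. Against untreated CHO-K6, the SD of the differences was 0.291 with pertuzumab, 0.139 with the combination and 0.143 with trastuzumab. The pertuzumab array, the reference of this pair, thus stood furthest from untreated CHO-K6. How much of the pair's differences comes from that array was not tested. In CHO-K1, trastuzumab + pertuzumab against untreated had 7.59% higher and 11.8% lower. Over the 14480 transcripts the differences with trastuzumab alone correlated weakly with those of the CHO-K6 pair (r = 0.063, rho = 0.005) and of the CHO-K1 pair (r = −0.061, rho = −0.026). The CHO-K6 and CHO-K1 pairs correlated with each other at r = −0.631 (rho = −0.618). The points are transcripts read on the same arrays and are not independent.

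Of the 578 transcripts higher with trastuzumab, 152 (26.3%) were also higher past 1.2-fold in the CHO-K6 pair and 65 (11.2%) were lower. Of the 409 lower, 63 (15.4%) were lower and 65 (15.9%) were higher there. Named transcripts past 1.2-fold on the same side in both numbered 29 of the 270 named higher and 13 of the 100 named lower. Over all 14480 transcripts, 12.9% were higher and 9.01% lower in the CHO-K6 pair. The named higher transcripts thus lay on the same side there less often than all transcripts, and the named lower ones somewhat more often. The genes below were chosen for passing in both pairs. Dst, a giant linker of the cytoskeleton, had 7.70 with trastuzumab against 7.29 untreated, and 7.52 with the combination against 6.97 with pertuzumab. Cpeb4, which regulates mRNA polyadenylation, had 6.95 against 6.58 and 6.91 against 6.45 in the same pairs, and Skil, a repressor of TGF-beta signalling, had 7.40 against 7.07 and 7.11 against 6.71. The kinase gene Map3k13 (whose second transcript differed by −0.11), the clotting factor gene F8, the sugar transporter gene Slc35d2 and transcripts of Lpp, Zbtb20, Cd46, Pmpcb and Cnksr2 belonged to the same set. CXHXorf38 was the last of the 12 named. In each of the 12 the trastuzumab array was the highest and the pertuzumab array the lowest of the 4 CHO-K6 arrays, which the choice of transcripts fixes in part.

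On the lower side Gys1, the muscle glycogen synthase, had 8.75 with trastuzumab against 9.05 untreated, and 8.82 with the combination against 9.16 with pertuzumab. Ddit4, an inhibitor of mTORC1, had 5.88 against 6.18 and 5.98 against 6.32 in the same pairs, and Dusp15, a phosphatase gene, had 8.28 against 8.63 and 8.54 against 8.83. Rnf113a, Arfgap1, Vstm5, Zc3h12a, an RNase that cuts inflammatory mRNAs, Lzic, Hoxb6, Sugp2, Fam131a and Jrk made up the rest of the 12 named. Second transcripts differed by −0.31 for Vstm5, −0.17 for Jrk, −0.03 for Sugp2, −0.01 for Arfgap1 and, on the other side, 0.06 for Hoxb6. In each of the 12 transcripts chosen the trastuzumab array was the lowest of the 4, which the choice again fixes in part.

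The gene lists did not carry over in the same way. Of the 10 lists below all genes with trastuzumab, 3 (cytosolic chaperones, proteasome and glycolysis) were also below all genes in the CHO-K6 pair and 6 were in the CHO-K1 pair, where trastuzumab came with pertuzumab and HER2 was not overexpressed. Relative to all genes, the SR protein list stood at −0.08 with trastuzumab, at 0.14 in the CHO-K6 pair and at −0.10 in the CHO-K1 pair. The DNA replication list stood at −0.07, 0.03 and −0.03 in the same order, the mitotic list at −0.06, 0.01 and −0.06, and the ribosomal proteins at −0.07, 0.03 and 0.02. The cytosolic chaperones kept 1 side in all 3 pairs, at −0.075, −0.025 and −0.015, and so did the circadian list, at 0.12, 0.025 and 0.055.

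**Figure D5:**
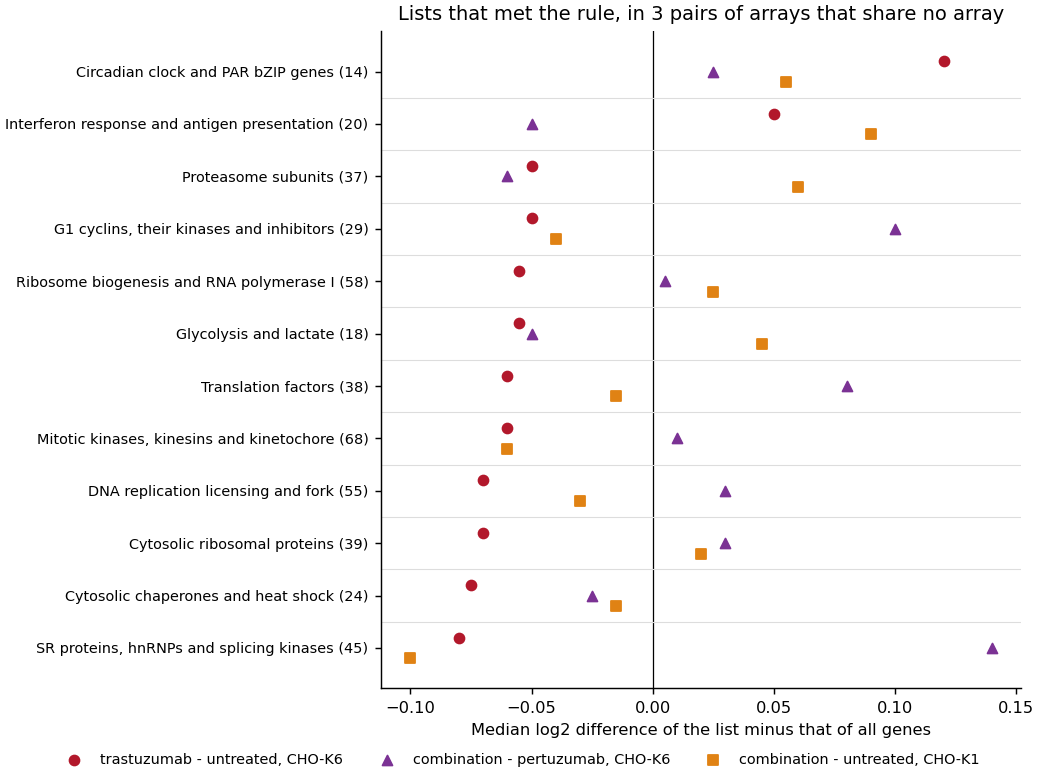
For each of the 12 lists that met the rule, the x axis gives the list's median log2 difference minus that of all genes in 3 pairs that share no array. The trastuzumab comparison in CHO-K6 is drawn as circles, trastuzumab + pertuzumab against pertuzumab in CHO-K6 as triangles, and trastuzumab + pertuzumab against untreated CHO-K1 as squares. The SR protein list lies at −0.08, 0.14 and −0.10.

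Differences with pertuzumab and with the combination are taken from the same untreated CHO-K6 array, so likeness among them follows in part from that array. Relative to all genes, the SR protein list stood at −0.08 with trastuzumab, −0.26 with pertuzumab and −0.08 with the combination, and DNA replication at −0.07, −0.06 and −0.04. For the cytosolic chaperones the shifts were −0.075, −0.02 and −0.03 in that order, for the interferon list 0.05, 0.15 and 0.075, and for the circadian list 0.12, 0.06 and 0.085. All 3 treatments lasted 24 h, and with 1 array each the differences between them have no interval.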

How the data were processed

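Affymetrix CHO Gene ST arrays measured the RNA of 6 cultures. The authors deposited log2 signals of 29700 transcripts, made according to the paper with the Affymetrix Transcriptome Analysis Console 3.0, and the submitters' processing notes also name the Affymetrix Expression Console; the normalization is not given in the sources used here. The deposited series matrix, also in log2, holds 30934 transcripts and its values lie within 0.005 of the table for the transcripts in both. The array medians were 5.89 to 5.91. No further scaling was applied, and the number of arrays limits the precision.

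Gene symbols came from the platform annotation, with 1 symbol for 16481 transcripts, several for 793 and none given for 12426. Of the first, 16394 matched RefSeq by identifier, and none differed in symbol. A gene was read from its transcript with the highest mean signal in the trastuzumab and untreated CHO-K6 arrays. Of the 60 lists, 58 were summarized by medians and counts, and 2 were not analysed here. The 1.2-fold threshold, the signal minimum of 6, and the members and lists were chosen with earlier results of these data known.

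Named genes are the 15 furthest each way among transcripts with 1 symbol that is not a locus number, the 4 furthest along and 2 furthest against each list that met the rule, up to 12 each way past 1.2-fold in the trastuzumab comparison and in trastuzumab + pertuzumab against pertuzumab, and the ERBB, ligand and ERK feedback genes. Alternatives were other thresholds and signal minimums, quantile normalization, a loess trend removed, the series matrix, other summaries of a gene or list, and other arrays as the reference. The computation of counts and medians was checked on simulated data with planted shifts larger than most list shifts found here. How often an unshifted list would meet the rule is not given here. Software versions were Python 3.11.15, statsmodels 0.14.6, pandas 2.3.3, NumPy 2.4.6 and matplotlib 3.10.9.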

Additional observations from a re-analysis of the deposited data

How the results depend on the processing

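With 1 array per condition, no result has a replicate error, and the depth of an array is limited by its signal over background, which the tables do not give. The main counts were 578 transcripts higher and 409 lower with trastuzumab. By construction of the threshold they were 2450 and 1718 at 1.1-fold, 25 and 14 at 1.5-fold and 0 and 0 at 2-fold. They were 935 and 863 at a signal of 5 or more, 178 and 103 at 8 or more, 2074 and 2361 with no signal minimum, and 324 and 146 over transcripts with 1 symbol. Against the averaged CHO-K6 arrays with pertuzumab and with the combination they were 1366 and 682. Quantile normalization and the loess trend moved the balance from 578 and 409 to 497 and 480 and to 504 and 481.

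The rule for lists gave 2 above and 10 below all genes. It gave 4 above and 9 below at a signal of 5 or more, 3 and 9 at 8 or more, 3 and 7 with no signal minimum, 6 and 6 with quantile normalization, 5 and 7 with the loess trend removed, 4 and 7 with means for medians, 2 and 9 with the mean of a gene's transcripts and in the series matrix, 4 and 4 against the other antibody-treated arrays, and 4 and 6 for trastuzumab + pertuzumab against pertuzumab. Against the other antibody-treated arrays 1 of the 12 lists (proteasome) still met the rule. The interferon list then stood at −0.03 from all genes, the SR protein list at 0.085 and the mitotic list at 0.06, on the other side. For trastuzumab + pertuzumab against pertuzumab, 8 lists changed side: interferon (−0.05), ribosomal proteins (0.03), translation factors (0.08), ribosome biogenesis (0.005), SR proteins (0.14), G1 cyclins (0.10), DNA replication (0.03) and mitotic genes (0.01). Of 55 named transcripts past 1.2-fold, 31 stayed past it on the same side against the other antibody-treated arrays, and 5 changed sign: Slc12a5 (0.01), Stap2 (−0.01), Lhpp (−0.06), Psma3 (0.065) and Fzr1 (−0.055). The causes were not tested.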

Other observations

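The series matrix holds 1234 further transcripts with no gene name here, at a median signal of 5.86 in the trastuzumab and untreated CHO-K6 arrays. Of these, 138 (11.18%) differed by 2-fold or more between the trastuzumab and untreated CHO-K6 arrays, against 183 (14.83%) between CHO-K1 with trastuzumab + pertuzumab and untreated CHO-K1, and 209 (16.94%) between CHO-K6 with trastuzumab + pertuzumab and CHO-K6 with pertuzumab.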
